A study of Arabidopsis thaliana with 12 samples.

Results

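The nuclear transfer RNA (tRNA) genes of Arabidopsis thaliana were taken as all gene records of the tRNA type on chromosomes 1 to 5 of the RefSeq annotation of assembly TAIR10.1. There were 625 of them among 37899 gene and pseudogene records. They were compared with a merged list of 23226 Tn5 hypersensitive sites (THSs), stretches of open chromatin that ATAC-seq finds by where the transposase Tn5 can cut and tag DNA. Of these THSs, 399 lay over a tRNA gene or within 1 kb of one. The rule for members uses annotation and position alone and not the THS list, though it was set with earlier results of these data known.

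The 12 ATAC-seq samples were nuclei of whole seedlings at 10 days after germination (DAG), 2 replicates for each of 6 genotypes in the Col-0 ecotype. The 5 mutants lack or are weakened in Polycomb group (PcG) proteins, which keep genes silent through histone marks. These were bmi1abc and ring1ab, affected in enzymes that monoubiquitinate histone H2A, clf28swn7, affected in the enzymes that trimethylate histone H3, and emf1-2 and lhp1, affected in proteins that work with these enzymes. The wild type was Col-0 (WT). The tissue is a mixture of all seedling cell types, and the ring1ab mutant is a weak one. The deposited list merges the genotypes and carries no signal, so no value below belongs to a genotype or a replicate, nothing has an error over replicates, depth per sample is unknown from the list, and a THS may have been open in any 1 of the 6 genotypes. The authors describe a filter on low signal that leaves fewer THSs than the list holds, so the list was taken to precede that filter, and every share below depends on this. The identity of the tissue could not be checked against marker genes in a list of this kind.

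tRNA genes are transcribed by RNA polymerase III. Their promoter lies inside the transcribed sequence, as an A box and a B box that are bound by the factor TFIIIC, which places TFIIIB just upstream of the start. Transcription stops at a run of T after the gene, and in plants a CAA motif shortly before the gene is common at the start of transcription. The genes are short, occur in many identical copies, and in Arabidopsis the genes for tRNA-Tyr and for the elongator tRNA-Met carry an intron.

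The records were between 69 and 90 bp long, with a median of 73 bp, and covered 20 amino acids with 47 anticodons. An intron was annotated in 81 genes, 70 of them tRNA-Tyr and 11 tRNA-Met. The 625 genes held 211 distinct sequences once exons were joined. In 23 genes, all on chromosome 2 between positions 3255832 and 3503608, the gene sequence was also present without a mismatch in the mitochondrial genome. This stretch is a known copy of mitochondrial DNA in the nucleus, and between 90.6% and 100% of the positions in these genes and their 1-kb flanks began a 50-bp sequence found in the mitochondrial genome. For the other 602 genes this share was 0. Arrays were runs of tRNA genes whose neighbours lay at most 2 kb apart, and all other genes were called dispersed.

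The sequences on which the comparisons turn are shown here, 5′ to 3′ along the gene with exons joined. Capitals mark GTTCGA, the most conserved letters of the B box. The first set gives the commonest sequences of the large arrays, in which THSs were nearly missing. They are tRNA-Pro AT1G28830 (chromosome 1, 10097114 to 10097185, plus strand), tRNA-Ser AT1G56760 (chromosome 1, 21270296 to 21270377, plus strand) and tRNA-Tyr AT1G56750 (chromosome 1, 21269552 to 21269636, plus strand).
AT1G28830: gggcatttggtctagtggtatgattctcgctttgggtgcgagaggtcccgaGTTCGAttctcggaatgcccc
AT1G56760: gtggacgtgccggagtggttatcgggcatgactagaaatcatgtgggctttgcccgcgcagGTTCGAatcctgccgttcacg
AT1G56750: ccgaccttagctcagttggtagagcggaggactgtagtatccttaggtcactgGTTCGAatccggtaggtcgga

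The second set gives sequences that occur many times as dispersed genes, so that the same sequence can be seen at different places. They are tRNA-Asp AT1G03515 (chromosome 1, 877648 to 877719, plus strand), tRNA-Lys AT1G01890 (chromosome 1, 309275 to 309347, minus strand), tRNA-Phe AT1G02480 (chromosome 1, 515494 to 515566, plus strand) and tRNA-Ile AT1G06480 (chromosome 1, 1978084 to 1978157, plus strand). The tRNA-Ile sequence was added after its values had been seen.
AT1G03515: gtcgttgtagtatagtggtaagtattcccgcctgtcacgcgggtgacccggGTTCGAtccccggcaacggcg
AT1G01890: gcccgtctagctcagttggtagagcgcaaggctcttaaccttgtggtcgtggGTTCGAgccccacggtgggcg
AT1G02480: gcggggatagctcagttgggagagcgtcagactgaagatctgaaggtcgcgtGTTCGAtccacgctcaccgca
AT1G06480: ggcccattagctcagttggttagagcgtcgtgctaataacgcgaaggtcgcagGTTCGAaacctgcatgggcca

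The third set belongs to dispersed genes under the longest THSs, tRNA-Trp AT4G17765 (chromosome 4, 9873512 to 9873583, minus strand) and tRNA-Leu AT3G10015 (chromosome 3, 3090544 to 3090626, plus strand). Another gene of this kind, tRNA-Asp AT3G13335 (chromosome 3, 4330772 to 4330843, plus strand), has the sequence shown for AT1G03515.
AT4G17765: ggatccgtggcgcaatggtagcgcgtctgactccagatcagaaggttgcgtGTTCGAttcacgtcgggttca
AT3G10015: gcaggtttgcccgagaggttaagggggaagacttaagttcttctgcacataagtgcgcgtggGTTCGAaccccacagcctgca

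The letters of the B box, the CAA motif and the T run after the gene were common to most members. GTTCGA stood on the sense strand in 498 of the 625 genes (79.7%), against 0.998% of all windows of 73 bp on either strand of the genome. The longer form GGTTCGA was in 379 genes (60.6%), against 0.267% of windows. CAA stood within the 10 bp before the gene in 454 genes (72.6%), against 17.9% of all windows of 10 bp, and TTTT within the 25 bp after it in 578 genes (92.5%), against 20.4% of windows of 25 bp. A match is a run of letters, and it does not show that a factor was bound. The B box is part of the tRNA sequence itself, so its excess in records of the tRNA type is no independent result.

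A THS overlapped the gene itself at 214 of the 625 tRNA genes (34.2%, 95% Wilson interval 30.6 to 38.0). A window of 73 bp, the median length of a record, touched a THS at 7.70% of all genome positions, and THSs overlapped the first 73 bp of 28.0% of protein-coding genes. By a stricter rule, with the midpoint of a THS inside the gene, the share was 8.16%, against 1.42% of positions for a window of 73 bp. The difference in overlap was 6.26 percentage points (2.61 to 10.1, Newcombe interval) between tRNA and protein-coding genes. Within 1 kb of the gene, 309 tRNA genes had a THS (49.4%, 45.5 to 53.4). For windows of the same size, the values were 37.3% over all genome positions and 54.1% at the starts of protein-coding genes, a difference of -4.62 percentage points (-8.56 to -0.660) from the protein-coding genes. Intervals here and below cover counting only. Genes are not replicates, copies share their sequence and neighbours share their chromatin, and no test was made.

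These figures mix classes that differed widely, as the arrays and the mitochondrial copies had almost no THS. Of the 122 genes in arrays of 5 or more, 4 had a THS within 1 kb (3.28%, 1.28 to 8.13) and 0 were overlapped, which allows a share of up to 2.46%. Of the 23 mitochondrial copies 0 had a THS within 1 kb, which allows a share of up to 13.0%. Both limits take the genes as independent, though 81 of the 122 form 1 array and the 23 lie in 1 stretch. In arrays of 2 to 4 genes, 17 of 32 had a THS within 1 kb (53.1%, 36.4 to 69.1), and 288 of 448 dispersed genes had one (64.3%, 59.7 to 68.6). The genes outside the large arrays and the mitochondrial stretch, called core tRNA genes below, numbered 480. Of these, 305 had a THS within 1 kb (63.5%, 59.1 to 67.7) and 214 were overlapped (44.6%, 40.2 to 49.1). The core genes were defined after these counts had been seen. All 214 overlapped genes were core genes.

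Core tRNA genes were set beside other short non-coding genes, measured over the first 73 bp of each gene and over 1 kb on either side. THSs overlapped 44.6% of the core tRNA genes, against 41.5% (31.4 to 52.3) of 82 small nuclear RNA (snRNA) genes, most of whose products work in splicing, a difference of 3.12 percentage points (-8.55 to 14.1). The overlap was 6.62% (4.28 to 10.1) for 287 small nucleolar RNA (snoRNA) genes, whose products guide RNA modification, and 10.4% (7.56 to 14.2) for 326 microRNA (miRNA) genes. The difference between core tRNA genes and snoRNA genes was 38.0 percentage points (32.4 to 43.0). Because the core genes leave out classes without any overlap, and the other gene types were not filtered in this way, their share is high by construction. With all 625 tRNA genes (34.2%), the difference was 27.6 percentage points (22.6 to 32.1) from snoRNA genes and 23.8 (18.6 to 28.6) from miRNA genes, and it was -7.22 (-18.6 to 3.52) from snRNA genes, the opposite sign with an interval that again includes 0. Within 1 kb tRNA genes stood below snoRNA genes, with 63.5% of core tRNA genes against 77.4% of snoRNA genes, a difference of -13.8 percentage points (-20.1 to -7.15). The first bases of a snoRNA gene were seldom under the nearby THS.

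THS coverage was highest over the tRNA gene rather than in front of it. At core tRNA genes coverage by THSs was highest at 61 bp after the gene start, where 40.0% of the genes were covered. It was 35.0% at the start itself, 17.7% at 200 bp before it and 30.4% at 200 bp after it. Protein-coding genes had their highest coverage, 28.5%, at 59 bp before the start, with 26.1% at the start and 7.14% at 200 bp after it. Over all 625 tRNA genes, the 200 bp before the gene were covered less than the 200 bp after it, by -5.42 percentage points (-8.33 to -2.50).

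**Figure D1:**
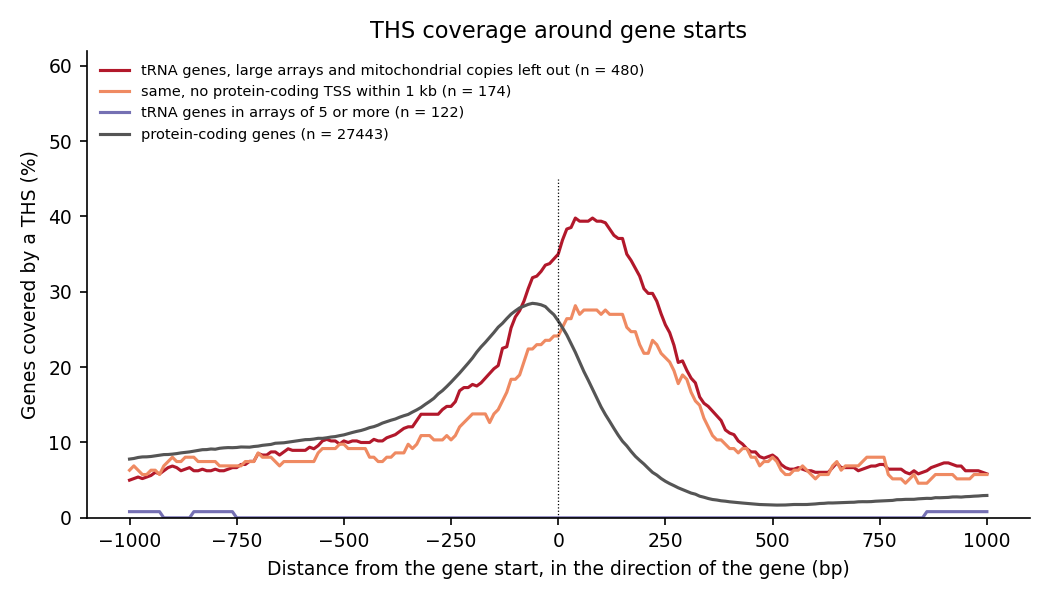
Percent of genes covered by a THS (vertical axis) at each distance from the gene start in bp, read in the direction of the gene (horizontal axis), for 480 core tRNA genes, the 174 of them with no protein-coding start within 1 kb, the 122 tRNA genes in arrays of 5 or more and 27443 protein-coding genes (1 gene too near a chromosome end was left out). The tRNA curve is highest at 61 bp after the start, the protein-coding curve at 59 bp before it, and the arrays stay at or below 0.820%.

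Of the 214 overlapped genes, 141 (65.9%) lay wholly inside a THS. The THS reached a median of 116.5 bp beyond the gene on the upstream side and 174 bp on the downstream side, and its midpoint lay a median of 54.25 bp after the gene start. It reached further upstream at 97 genes and further downstream at 117. The overlaps came from 213 THSs, 212 over a single gene and 1 over a pair of neighbours, tRNA-Asp AT1G17660 and tRNA-Val AT1G17670, which lie 53 bp apart. The median THS over a tRNA gene measured 380 bp, against 254 bp in the whole list, and 15.5% of them were shorter than 200 bp, against 36.0% of all. A longer region touches a gene more easily, so the lengths are no measure of how open the tRNA genes were.

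The 5 longest THSs over a dispersed tRNA gene were between 1122 and 1491 bp long. The longest covered AT3G13335 with 546 bp to spare upstream and 873 bp downstream, and also covered the start of the protein-coding gene AT3G13340, annotated as a WD40 repeat protein. The THS of 1185 bp over AT4G17765 had its nearest protein-coding start, that of AT4G17760, at 1555 bp and reached 917 bp upstream of the tRNA gene. The THS of 1146 bp over AT3G10015 lay 873 bp from the start of AT3G10020. The THS of 1127 bp at tRNA-Asp AT1G75070 (chromosome 1, 28184532 to 28184603, plus strand) left the first 6 bp of the gene out and covered the start of BZR1, a transcription factor of brassinosteroid signalling. The fifth, of 1122 bp over tRNA-Glu AT1G75570 (chromosome 1, 28373489 to 28373561, minus strand), covered the start of AT1G75560, a zinc knuckle protein gene. Of the 5, 3 thus also covered the start of a protein-coding gene. Among all 213 THSs over a tRNA gene, 89 did so (41.8%), against 28.3% of the whole THS list, whose regions were shorter. The overlap shares above therefore include many THSs that are also at the start of a protein-coding gene.

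Since a THS near a tRNA gene can be that of a neighbouring promoter, the genes were split by whether a protein-coding transcription start site (TSS) lay within 1 kb. Among all members, 211 of 325 genes with such a TSS had a THS within 1 kb (64.9%), against 98 of 300 without one (32.7%), a difference of 32.3 percentage points (24.6 to 39.4). The large arrays and mitochondrial copies hold 126 of the 300. Among core genes the shares were 211 of 306 (69.0%) with a TSS and 94 of 174 (54.0%) without, a difference of 14.9 percentage points (5.91 to 23.8). THSs overlapped 156 of the 306 genes with a TSS (51.0%) and 58 of the 174 without one (33.3%), a difference of 17.6 percentage points (8.46 to 26.3). The 33.3% over core genes with no protein-coding start within 1 kb stood above the 7.70% of genome positions. The core set leaves out classes with no overlap, which raises this share by construction. Among all 300 members without such a start, 58 were overlapped (19.3%). In those 58 genes the THS reached a median of 112 bp upstream and 180.5 bp downstream, further upstream at 29 genes and further downstream at 29. The coverage of genes with no TSS nearby was highest, at 28.2%, between 37 and 73 bp after the start.

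tRNA genes inside the record of a protein-coding gene were overlapped less often. Of the 40 core genes of this kind, 10 lay under a THS (25%), against 204 of 440 outside such records (46.4%), a difference of -21.4 percentage points (-33.1 to -5.49). Within 1 kb the shares were 55.0% and 64.3%, and the interval of their difference, -25.1 to 5.69 percentage points, included 0. The share of all genome positions under a THS inside and outside such records was not computed. THS coverage of protein-coding genes fell from 26.1% at the start to 1.71% at 500 bp after it. Whether the lower overlap is particular to tRNA genes was therefore not tested.

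The share of core genes under a THS was also counted by amino acid, beside the 44.6% over all core genes. The intervals of all amino acids but isoleucine and cysteine included this 44.6%. These were picked as the highest and the lowest of 20 mostly small groups. Isoleucine stood highest, with 17 of 22 core genes overlapped (77.3%, 56.6 to 89.9) and 20 of 22 with a THS within 1 kb (90.9%, 72.2 to 97.5). It was followed by histidine with 7 of 10 overlapped (70.0%), by phenylalanine and tyrosine with 10 of 16 each (62.5%), by tryptophan with 8 of 13 (61.5%) and by alanine with 20 of 33 (60.6%). Methionine had 12 of 21 overlapped (57.1%). The intervals of these 7 neighbours overlapped each other.

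In the middle of the order, glutamic acid had 11 of 23 genes overlapped (47.8%), lysine 14 of 30 (46.7%), leucine 18 of 40 (45%), aspartic acid 11 of 25 (44.0%), glutamine 7 of 16 (43.8%) and glycine 16 of 40 (40.0%). Arginine had 13 of 36 (36.1%), serine 11 of 32 (34.4%) and valine 10 of 30 (33.3%). Proline and threonine had 7 of 24 each (29.2%) and asparagine 4 of 15 (26.7%). Cysteine stood lowest, with 1 of 14 overlapped (7.14%, 1.27 to 31.5) and 4 of 14 with a THS within 1 kb (28.6%, 11.7 to 54.6). Its interval for the overlap ended below that of isoleucine. The 10 tRNA-Cys genes outside the array of 4 described below held both the 1 overlap and the 4 genes with a THS within 1 kb.

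**Figure D2:**
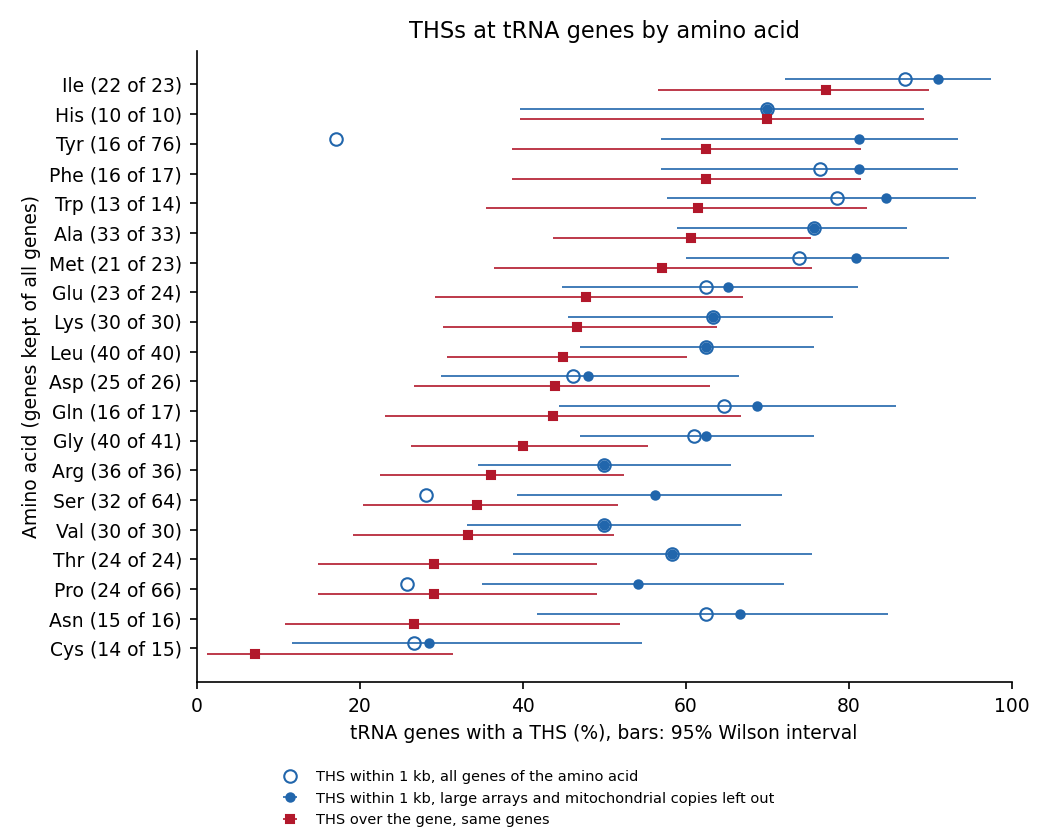
Percent of tRNA genes with a THS (horizontal axis) by amino acid (vertical axis, with the number of core genes of all genes). Filled circles show core genes with a THS within 1 kb, squares core genes overlapped by a THS, both with 95% Wilson intervals, and open circles all genes of the amino acid with a THS within 1 kb. Isoleucine is at the top and cysteine at the bottom, and the open circles of tyrosine (17.1%), proline (25.8%) and serine (28.1%) lie far left of the filled ones.

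With every gene counted, 3 amino acids had far lower shares. A THS lay within 1 kb of 13 of 76 tRNA-Tyr genes (17.1%), 17 of 66 tRNA-Pro genes (25.8%) and 18 of 64 tRNA-Ser genes (28.1%). Among core genes the shares were 81.2% for tyrosine, 54.2% for proline and 56.2% for serine. These are the amino acids of the large arrays.

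Genes of an amino acid could also differ by anticodon, written here as in the gene. For isoleucine, 15 of the 17 core genes with AAT were overlapped (88.2%) and 2 of the 5 with TAT. For leucine, 8 of 11 genes with AAG were overlapped and 3 of 10 with CAA. For arginine, 6 of 9 genes with ACG were overlapped, 2 of 9 with TCT and 1 of 6 with TCG. For methionine the intron marks the elongator genes. Of the 11 core tRNA-Met genes with an intron 9 were overlapped (81.8%), against 3 of 10 without one (30.0%), a difference of 51.8 percentage points (9.50 to 75). Within 1 kb the shares were alike in size, 9 of 11 against 8 of 10, with an interval of the difference from -31.0 to 35.4 percentage points. These groups are small, and they were read after the counts were known.

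Copies with the same sequence often differed in whether a THS was there. The 480 core genes held 169 distinct sequences, and 30 sequences were present in 5 or more copies, 268 genes in all. Of the 77 sequences with at least 2 copies, 56 had some copies under a THS and others not, 7 had all copies under a THS and 14 none, and within 1 kb 54 were mixed and 23 were not. In 29 of the 30 larger groups, some copies lay under a THS and others did not, as is likely for any group of this size when the share over all core genes is 44.6%. The exception was the tRNA-Ile sequence of AT1G06480, with 9 of 9 copies overlapped. The share of overlapped copies ranged from 16.7% to 100%. How reads inside identical copies were placed was not tested, and the flanks of most core genes were unique, as given below.

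The largest group was tRNA-Asp with 21 copies, of which 10 were overlapped, 1 had a THS within 1 kb only and 10 had none within 1 kb. The nearest THS lay a median of 976 bp and at most 5118 bp away. The tRNA-Lys group had 15 copies, 9 overlapped and 12 with a THS within 1 kb, and the tRNA-Phe group 15 copies, 10 overlapped and 12 with a THS within 1 kb. In the tRNA-Asp group a CAA stood in the 10 bp before the gene and TTTT in the 25 bp after it at all 21 copies. A protein-coding TSS lay within 1 kb of 10 of the 10 overlapped copies and of 7 of the 10 copies with no THS.

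**Figure D3:**
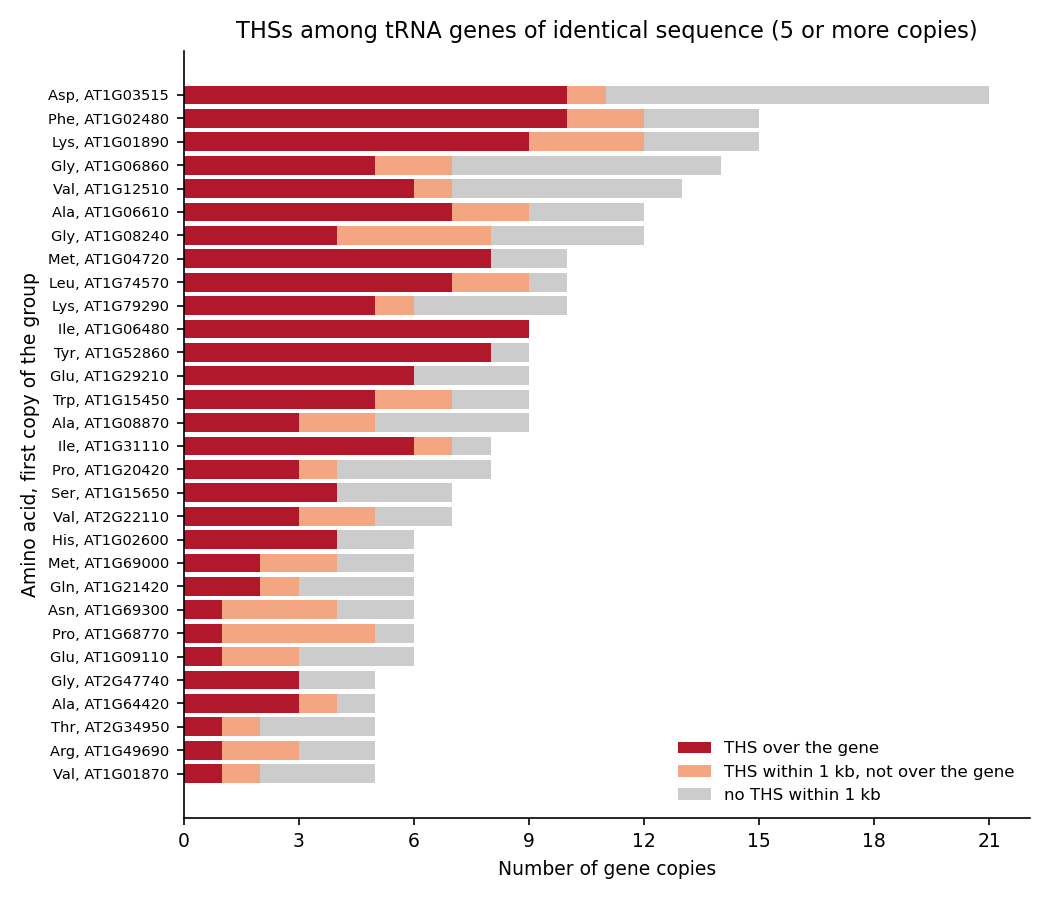
Number of gene copies (horizontal axis) in each of the 30 groups of core tRNA genes with the same sequence and 5 or more copies (vertical axis, by amino acid and first copy), split into copies overlapped by a THS, copies with a THS within 1 kb but not over the gene, and copies with none within 1 kb. The 21 tRNA-Asp copies at the top divide into 10, 1 and 10, and the tRNA-Ile group is the single one with all 9 copies overlapped.

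The 50 bp before the gene are shown for the first 3 overlapped copies and the first 3 copies without a THS of the tRNA-Asp group, to set different flanks beside the same gene. Capitals mark the last CAA in the 10 bp before the gene. The overlapped copies were AT1G03515 (flank on chromosome 1, 877598 to 877647, plus strand), AT1G17660 (chromosome 1, 6075770 to 6075819, plus strand) and AT1G18430 (chromosome 1, 6345714 to 6345763, plus strand).
AT1G03515 flank: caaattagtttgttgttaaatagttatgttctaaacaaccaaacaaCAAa
AT1G17660 flank: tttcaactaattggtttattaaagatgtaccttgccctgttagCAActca
AT1G18430 flank: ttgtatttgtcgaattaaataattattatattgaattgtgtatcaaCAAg

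The copies without a THS were AT1G49020 (flank on chromosome 1, 18135670 to 18135719, minus strand), AT1G73900 (chromosome 1, 27788933 to 27788982, plus strand) and AT2G33660 (chromosome 2, 14244649 to 14244698, plus strand). Their nearest THSs lay 1874, 1588 and 4376 bp away. All 6 flanks held the motif.
AT1G49020 flank: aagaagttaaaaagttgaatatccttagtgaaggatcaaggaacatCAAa
AT1G73900 flank: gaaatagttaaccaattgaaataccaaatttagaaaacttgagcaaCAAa
AT2G33660 flank: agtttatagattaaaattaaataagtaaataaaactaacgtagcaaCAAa

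The letters of the B box, the CAA motif and the T run did not separate core genes with and without a THS by much. Genes with GGTTCGA had a THS within 1 kb in 59.8% of cases, against 69.1% of those without it, a difference of -9.28 percentage points (-17.7 to -0.509). For the overlap the difference was -5.63 percentage points (-14.6 to 3.39), an interval that includes 0. With CAA upstream the share with a THS within 1 kb was 64.1%, against 61.7% without, a difference of 2.37 percentage points (-7.40 to 12.7). With TTTT downstream it was 63.3%, against 67.9% without, and the difference of -4.58 percentage points ran from -19.5 to 14.4. Core genes with an intron, all tRNA-Tyr or tRNA-Met, were overlapped in 19 of 27 cases (70.4%), against 195 of 453 without an intron (43.0%), a difference of 27.3 percentage points (7.92 to 41.8). Over all 625 genes the sign was the opposite, with 19 of 81 (23.5%) against 195 of 544 (35.8%). That difference was -12.4 percentage points (-21.3 to -1.37). The array of 81 genes, left out of the core set, holds 54 genes with an intron and no overlap.

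The 163 genes in 23 arrays had a THS within 1 kb in 21 cases (12.9%, 8.58 to 18.9), against 288 of the 462 dispersed genes (62.3%, 57.8 to 66.6), a difference of -49.5 percentage points (-55.5 to -41.9). A single array holds 81 of the 163 genes. With each array counted as 1 locus the difference was -14.5 percentage points, and its interval of -33.6 to 5.22 included 0. THSs overlapped 6.13% of the array genes and 44.2% of the dispersed genes, a difference of -38.0 percentage points (-43.4 to -31.5). The difference lay in the larger arrays. In the 14 arrays of 2 genes, 17 of 28 genes had a THS within 1 kb (60.7%), -1.62 percentage points (-20.4 to 14.7) from the dispersed genes. Of these pairs, 8 had a THS within 1 kb of both genes, 5 of neither, and 1 of a single gene, where neighbours share much of the window. By the overlap, both genes lay under a THS in 2 pairs, a single gene in 6 and neither in 6. In the 9 arrays of 3 or more, 4 of 135 genes had one, and no THS lay inside any of these 9 arrays. This depends on the 2-kb rule, as THSs lay in gaps between tRNA-Pro arrays that follow each other on chromosome 1.

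The longest array ran from AT1G56730 to AT1G57530 on chromosome 1 (21268787 to 21308471, 39685 bp). It held 81 genes on the plus strand in a repeating order of 1 tRNA-Ser and 2 tRNA-Tyr genes, 27 and 54 in all, with a median gap of 373 bp. No gene of it had a THS within 1 kb. The limit of 3.70% for 0 of 81 genes would hold only for independent genes, whereas these form 1 repeated locus. The nearest THSs lay 1234 bp before the array and 2894 bp after it. Its sequence is repeated, and a median of 0% of the positions around its genes (at most 35.5%) began a 50-bp sequence that occurs once in chromosomes 1 to 5. With 100-bp sequences the median was also 0%. How reads were placed there was not tested, so a lack of open chromatin cannot be told apart from a lack of placed reads.

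The 5 arrays of tRNA-Pro held 41 genes, with mostly unique flanks. The array from AT1G28720 to AT1G28810 (chromosome 1, 10089437 to 10094244) had 9 genes, 1 with a THS within 1 kb. The array from AT1G28820 to AT1G28920 (chromosome 1, 10096951 to 10102064) had 11 genes, 3 with a THS within 1 kb. The array from AT1G28930 to AT1G28990 (chromosome 1, 10106090 to 10108781) had 6 genes, that from AT1G45234 to AT1G45246 (chromosome 1, 17156607 to 17162093) also 6, and that from AT2G33890 to AT2G33970 (chromosome 2, 14350386 to 14356592) had 9, and these 3 arrays had no THS within 1 kb of any gene. The median share of unique positions was at least 92.6% in each of these 5 arrays. No tRNA-Pro gene in an array was overlapped. The 4 genes with a THS were AT1G28810, AT1G28820, AT1G28830 and AT1G28920, at 978, 758, 921 and 786 bp. Each was the first, second or last gene of its array, and the THSs stood outside the arrays. The arrays starting at AT1G28720, AT1G28820 and AT1G28930 follow each other on the plus strand, parted only by gaps of more than 2 kb. THSs lay in both gaps, and those near the 4 genes were among them. With a wider limit for neighbours these arrays would be a single run with THSs inside it.

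**Figure D4:**
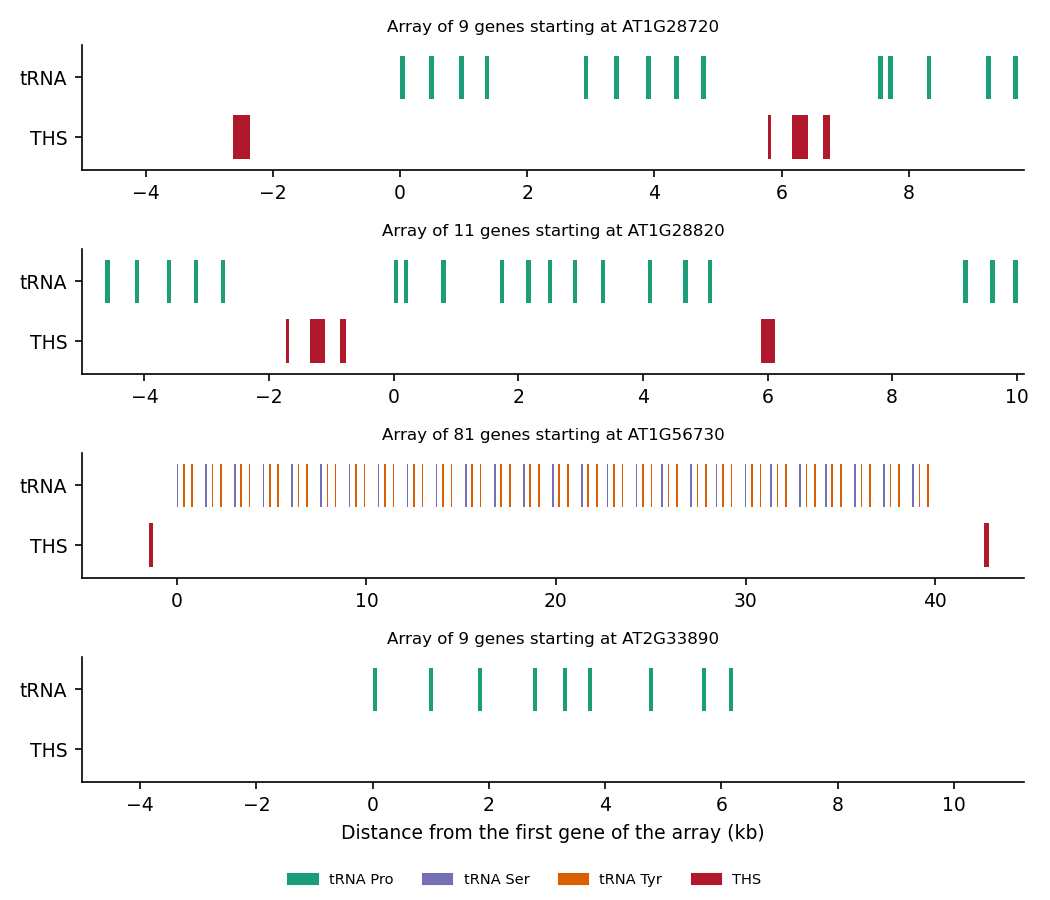
tRNA genes (upper row of each panel, by amino acid) and THSs (lower row) in the 4 arrays of 9 or more genes outside the mitochondrial stretch and the 5 kb on either side, against the distance from the first gene of the array in kb (horizontal axis). No THS lies between the first and the last gene of an array, and the array of 81 has its nearest THSs 1234 bp before and 2894 bp after it.

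Of the smaller runs, 4 tRNA-Cys genes from AT5G20852 to AT5G20858 (chromosome 5, 7073530 to 7074843) had no THS within 1 kb, with a median of 93.7% unique positions. The run of 6 genes from AT2G07759 to AT2G07765 (chromosome 2, 3494382 to 3497440) and the run of 3 from AT2G07752 to AT2G07754 were mitochondrial copies without a THS. The 6 were for asparagine, cysteine, proline, serine and, in 2 cases, tyrosine.

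Array sequences were also found outside arrays. The tRNA-Ser sequence shown for AT1G56760 occurred 13 times in the array of 81, with 0 copies near a THS, against 7 core copies, of which 4 were overlapped. The 41 tRNA-Pro array genes held 7 sequences, and 2 of these were shared with 7 core genes, 5 of which had a THS within 1 kb and 1 of which was overlapped. The commonest array sequence, that of 33 array genes, had 1 core copy, AT3G06335, whose nearest THS lay 2803 bp away. All 5 core genes with a THS, and the 1 overlapped, had the other sequence, that of AT1G68770, with 6 core copies. The 54 tRNA-Tyr array genes held 10 sequences, of which none occurred outside. The nearest of the 16 core tRNA-Tyr genes matched the commonest array sequence at 69 of 74 aligned positions.

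How far reads can be placed was measured as the share of positions in the gene and its 1-kb flanks that begin a 50-bp sequence occurring once in chromosomes 1 to 5. Over the genome 94% of positions did so. Of 510 members with at least 90% of such positions 298 had a THS within 1 kb (58.4%), against 11 of 115 below that (9.57%), a difference of 48.9 percentage points (40.8 to 54.8). Below 50% there were 83 genes, none with a THS within 1 kb. Of these, 81 form the single array of tRNA-Ser and tRNA-Tyr genes, and the other 2 were mitochondrial copies. The same 81 genes are most of the 115, so the difference rests largely on 1 locus. Among core genes the shares were 294 of 458 (64.2%) and 11 of 22 (50.0%), a difference of 14.2 percentage points (-5.60 to 33.9). In arrays of 5 or more, 38 genes reached 90%, and 4 of them had a THS within 1 kb (10.5%), against the 64.2% of core genes above the same limit, a difference of -53.7 percentage points (-61.3 to -39.3). These 38 genes lie in the 5 tRNA-Pro arrays, and the windows of neighbours overlap. The interval thus counts 5 loci as 38 genes, and some of these loci follow each other closely on chromosome 1. In these 5 arrays THSs were few also where the sequence was unique by this measure. How the aligner treated reads with several matches is not given in the sources used here, and its part in these counts was not tested.

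**Figure D5:**
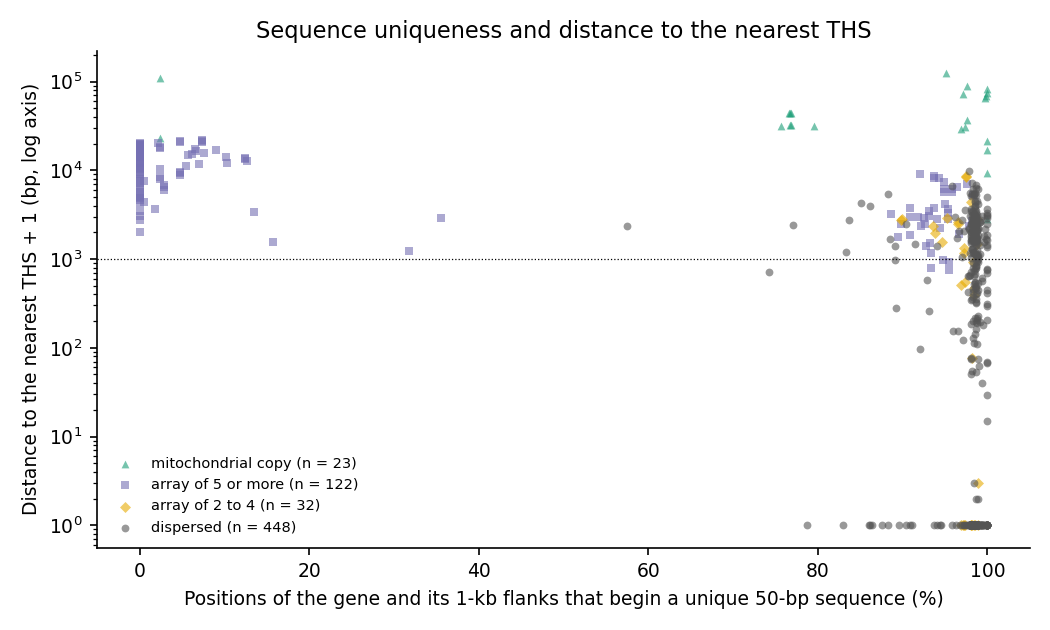
Distance to the nearest THS plus 1 in bp (vertical log axis) against the percent of positions of the gene and its 1-kb flanks that begin a unique 50-bp sequence (horizontal axis) for all 625 tRNA genes, by class, with a dotted line at 1 kb. Array genes form a cloud near 0% and another above 90%, both mostly above the line, mitochondrial copies lie above the line throughout, and most dispersed genes stand at the right on both sides of it.

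The members farthest from any THS were mitochondrial copies. Of the 23 copies, 19 lay farther from a THS than any other member, whose maximum was 21815 bp, and the nearest lay at 2799 bp. The 5 farthest were tRNA-Ile AT2G07794 (chromosome 2, 3383397 to 3383477) at 123883 bp, tRNA-Ser AT2G07793 (3369354 to 3369440) at 109840 bp, tRNA-Phe AT2G05315 (3437584 to 3437652) at 89313 bp, tRNA-Gly AT2G07756 (3444363 to 3444434) at 82531 bp and tRNA-Ser AT2G07757 (3452977 to 3453063) at 73902 bp. Apart from AT2G07793, with 2.40% unique positions, these genes were unique within chromosomes 1 to 5 at 95.1% or more of positions. The authors mapped reads to a genome without the organelle genomes and removed reads in regions of excessive coverage. Mitochondrial reads can then fall on these copies, and whether the removed regions include them was not tested.

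Among core genes that were not overlapped, the nearest THS was usually at some distance. It lay within 100 bp of 18 genes, between 101 and 500 bp from 42, between 501 and 1000 bp from 31, between 1001 and 2000 bp from 69, between 2001 and 5000 bp from 89 and between 5001 and 10000 bp from 17. No core gene lay farther than 10 kb from a THS, and the farthest was at 9936 bp. Of all 309 members with a THS within 1 kb, 225 had 1, 70 had 2 and 14 had 3 or more.

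Core genes on chromosomes 5 and 1 had a THS within 1 kb most often, 86 of 123 (69.9%, 61.3 to 77.3) and 86 of 125 (68.8%, 60.2 to 76.3). The shares were 39 of 63 on chromosome 2 (61.9%), 47 of 77 on chromosome 4 (61.0%) and 47 of 92 on chromosome 3 (51.1%, 41.0 to 61.1). On the plus strand 66.2% had a THS within 1 kb, and on the minus strand 60.4%, with overlapping intervals.

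The protein-coding genes that make and use tRNAs were looked at by the THS over their TSS or in the 1 kb upstream, which 47.6% of all protein-coding genes had. Among genes annotated as aminoacyl-tRNA synthetases, which load tRNAs with amino acids, 29 of 64 had one (45.3%, 33.7 to 57.4). The annotation puts some genes of other kinds under this name, such as SAMBA. For RNA polymerase III and its factors the rule took 22 genes, of which 13 had one (59.1%, 38.7 to 76.7). By shared symbols it also took MAF1, here a MADS-box gene, and the telomere-binding genes TRB3 and AT5G13820, and without these 3 the count was 11 of 19 (57.9%, 36.3 to 76.9). NRPC1, the largest subunit of the polymerase, had a THS of 414 bp and TFIIIA, the factor of 5S rRNA genes, one of 563 bp, while NRPC2, the next largest subunit, had none. Of 8 genes for tRNA maturation and export 6 had one (75%, 40.9 to 92.9). They were the RNase P genes PRORP1, PRORP2 and PRORP3, which trim the 5′ end, the tRNase Z genes TRZ1 and TRZ3, which trim the 3′ end, and the exportin gene PSD, whereas TRZ4 and the gene with the symbol CPZ had none. The intervals of all 3 lists included the 47.6%.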

How the data were processed

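ATAC-seq was done on 12 samples, per the labels. After trimming (Trimmomatic), the authors aligned the reads to TAIR10 chromosomes with bowtie, leaving the organelle genomes out, and dropped duplicates (Picard) and reads in regions of excessive coverage. MACS2 peaks (extension 200 bp) were called for each library, intersected between replicates and merged over genotypes. The deposited values used here are the coordinates of that merge in bp, with no count, score or signal, and pooled over samples. All regions fitted the chromosome lengths of TAIR10.1. Because replicates were intersected, some regions are short, and because genotypes were merged, a region may stem from 1 genotype.

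Regions were matched to tRNA gene records of RefSeq, which also supplied the sequences, with Python 3.11.15, pandas 2.3.3, NumPy 2.4.6 and Biopython 1.88. A gene had a THS if at least 1 bp of it lay in the gene, or in the gene with 1 kb on either side. Genome shares were computed exactly over all positions. Intervals are 95% Wilson intervals for shares and Newcombe intervals for differences, and the limit for a count of 0 is 3 counts. Scripts were tested on simulated regions. Named were all amino acids, every array of 5 or more genes, the 5 dispersed genes under the longest THSs, the 5 genes farthest from a THS and the 3 sequences with most copies. The members and lists were chosen with earlier results of these data known.

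Alternatives changed the THS length, the overlap rule, the window, the array definition, the weight of arrays and copies, the chromosomes and the measure of uniqueness. Leaving out mitochondrial copies, leaving them out with the large arrays, and keeping only unique genes were added after seeing the data. The depth per sample cannot be read from the list, though the authors give an approximate read number. The list holds more THSs than the authors count after a low-signal filter and was taken as the set before it, which was not tested. The authors' comparisons and supplementary lists were not used.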

Additional observations from a re-analysis of the deposited data

How the results depend on the processing

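None of the 6 compared results changed sign under any of the 62 alternatives: 30 stayed within the interval of the reported value and 32 moved, and of 200 values for single amino acids 176 stayed and 24 moved. The share of all genes with a THS within 1 kb (49.4%) became 39.7% with THSs of at least 200 bp, 43.8% with 500 bp and 61.9% with 2 kb on either side, 61.6% with each array as 1 locus, 61.4% without arrays of 5 or more, 63.5% without these and the mitochondrial copies, 56.6% without chromosome 1 and 58.4% with unique genes only. The share overlapped (34.2%) became 29.0% with THSs of at least 200 bp, 8.16% by the midpoint of the THS, 43.1% without arrays of 5 or more, 44.6% without these and the mitochondrial copies, 29.9% with each sequence once, 40.3% without chromosome 1 and 40.4% with unique genes only. The difference of array minus dispersed genes (-49.5 percentage points) became -40.4 with THSs of at least 200 bp, -58.2 for arrays of 5 or more against all others, -35.6 without chromosome 1, -32.4 with unique genes only and -14.5 with each array as 1 locus, where its interval, -33.6 to 5.22, included 0. The difference by a protein-coding TSS (32.3) became 44.2 with 2 kb on either side, 16.3 without arrays of 5 or more, 14.9 without these and the mitochondrial copies, 21.6 without chromosome 1 and 16.7 with unique genes only. The difference of unique minus repeated windows (48.9) became 36.9 with THSs of at least 200 bp, 62.7 with 2 kb on either side, 21.8 without arrays of 5 or more, 14.2 without these and the mitochondrial copies, 24.8 without chromosome 1, 58.0 with 100-bp sequences and 14.1 at a limit of 99%. Apart from the alternatives that leave genes out or change the window by construction, the cause was not tested. No paired analysis was possible because the list has no column per sample, and no replicate could be left out for the same reason. Depth limits what a missing THS means. A rough read number per replicate is given by the study, but the list itself carries no depth.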

Other observations

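Core tRNA genes were also grouped by the number of protein-coding starts in the 100 kb around them. The number ran from 0 to 42, and the groups were cut at 27 and 30, so the middle group spans a narrow range. THSs lay within 1 kb of 134 of 194 genes in the sparsest surroundings (69.1%, 62.3 to 75.2). They did so for 70 of 137 in the middle group (51.1%, 42.8 to 59.3) and 101 of 149 in the densest (67.8%, 59.9 to 74.8). The share thus did not rise or fall steadily over these groups. No genome share for the same groups was computed, so no relation to gene density can be read from this.

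The G-box CACGTG, a palindrome bound by bHLH and bZIP factors, occurred in 44 of the 213 THSs over a tRNA gene (20.7%, 15.8 to 26.6) and in 15.5% of all THSs. Per kb of sequence the values were 0.631 and 0.607, as the THSs over tRNA genes were longer. A TSS of a protein-coding gene lay within 1 kb of 76.5% of the THSs over a tRNA gene and of 62.3% of all THSs.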
